A study of Mus musculus with 4 samples.

Results

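The genes described here are those for the proteins of the cytosolic ribosome, taken as the 80 of 14519 genes in the expression table whose symbols begin with Rpl or Rps and go on as a ribosomal protein number does (Rplp0 to Rplp2, Rpsa and forms such as Rpl22l1 and Rps4x included). Of these, 49 code for proteins of the large subunit and 31 for proteins of the small subunit. Ribosomal proteins with another kind of symbol, such as Rps3a1 and Fau, are not found by this pattern and are given apart. The study compared 2 sorted populations of mouse colonic epithelium by CEL-seq, which counts sequence tags from the 3′ ends of transcripts. Reg4+ DCS cells, the deep crypt secretory cells that lie among the stem cells at the crypt base, were sorted as Reg4-dsRed+ cells, and Lgr5+ stem cells were sorted as Lgr5-GFP+ cells. Each population had 2 libraries, which the design text calls biological replicates. The sources used here do not give the strain, sex or age of the mice, the construction of the reporters, or the number of animals behind a library.

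A ribosome is built from ribosomal RNA and one copy of most of its proteins, so these genes are transcribed together and their mRNAs are among the most abundant of a growing cell. In mammals the mRNAs begin with a cytosine followed by a run of pyrimidines, the 5′ terminal oligopyrimidine (TOP) tract, through which mTOR and Larp1 control their translation. In the intestinal crypt, dividing stem and progenitor cells make new ribosomes for growth, while secretory cells devote much of their mRNA to a few secreted products.

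The sort markers followed the labels. In RPM (read numbers scaled so that every column has the same total), Reg4 stood at 6187 and 5899 in Reg4+ DCS cells and at 796 and 363 in Lgr5+ cells, and Lgr5 at 0.989 and 3.13 against 46.5 and 48.8. The 12 goblet cell markers summed to 215002 and 144690 RPM in Reg4+ DCS cells and to 6769 and 2758 RPM in Lgr5+ cells. The steps between RPM values put the Lgr5+ libraries at 5205723 and 7955340 reads. The values of a Reg4+ DCS column averaged those of 2 parts, which held 5523304 and 1890960 reads in replicate 1 and 3004289 and 2443971 in replicate 2. Differences below were tested with limma on log2(RPM + 1), as Reg4+ DCS minus Lgr5+, so that a negative log2 value means a higher level in Lgr5+ cells, and a gene was called where its p, adjusted over all genes tested by the Benjamini-Hochberg method, was under 0.05.

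Ribosomal protein mRNA made up a larger share of the Lgr5+ columns than of the Reg4+ DCS columns. The 80 genes together held 10.2% and 11.1% of all RPM in the Reg4+ DCS libraries (10.6% ± 0.655, SD, n = 2) and 15.6% and 19.7% in the Lgr5+ libraries (17.7% ± 2.94, SD, n = 2). Both Lgr5+ libraries lay above both Reg4+ DCS libraries, and the ratio of the means was 1.66. The small subunit genes held 3.80% and 4.32% against 6.62% and 8.61%, a ratio of 1.88. The large subunit genes held 6.38% and 6.79% against 8.96% and 11.1%, a ratio of 1.53. Within Reg4+ DCS replicate 1, the 80 genes held 9.85% of one part and 10.5% of the other. In these libraries a lower level per cell and a smaller share of cells with a high level cannot be told apart.

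RPM is a share of the column, and the columns differed in what else they held. The 10 genes above 1% of at least 1 library that are not among the 80 included the secreted products Clca3, Mptx1, Spink4, Muc2, Zg16, Fcgbp and Tff3, and together they held 26.9% and 18.9% of the Reg4+ DCS columns but 10.2% and 9.25% of the Lgr5+ columns. The remaining genes of these 10 stood higher in the Lgr5+ columns, namely Ptma (9479 and 10270 against 34728 and 31184 RPM), Rn45s, a precursor of ribosomal RNA (9184 and 7684 against 46715 and 41028 RPM), and Rps3a1, a ribosomal protein gene outside the symbol pattern that is described further on. With all genes above 1% left out of the total, 78 ribosomal protein genes held 12.7% and 12.5% against 15.4% and 19.1%, a ratio of 1.37. Median-of-ratios scaling, which divides each library by 1 factor so that the typical gene stands at the same level (factors 0.767 and 0.921 for Reg4+ DCS, 1.23 and 1.16 for Lgr5+), gave sums of 13.3% and 12.1% of the unscaled column total for Reg4+ DCS and 12.6% and 17.0% for Lgr5+. On that scale the groups overlapped, since Lgr5+ replicate 1 lay between the Reg4+ DCS libraries, and the ratio of the means was 1.17.

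**Figure D1:**
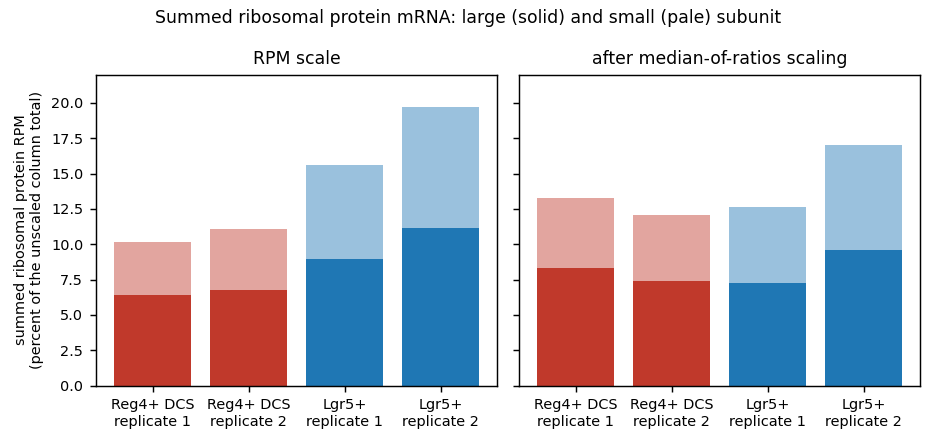
Summed RPM of the 80 ribosomal protein genes as a percent of the unscaled column total (vertical axis) in each of the 4 libraries (bars), before and after median-of-ratios scaling; the solid part of a bar is the large subunit and the pale part the small subunit. On the RPM scale both Lgr5+ bars (15.6% and 19.7%) stand above both Reg4+ DCS bars (10.2% and 11.1%), while after scaling Lgr5+ replicate 1 (12.6%) lies between the Reg4+ DCS bars (13.3% and 12.1%).

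Gene by gene, 77 of the 80 genes passed the filter of 5 RPM in at least 2 libraries and were tested. On the RPM scale 27 of the 77 were called higher in Lgr5+ cells, or 35.1%, where 26.9% of all 10183 genes tested were called in that direction. Higher in Reg4+ DCS cells were 0 of the 77 by limma, where 7.18% of all genes tested were called. At an unadjusted limma p under 0.05 the count was also 0, where 960 of all 10183 genes tested passed. EdgeR on recovered reads called 0 as well, and 728 of all genes tested. Both Lgr5+ values lay above both Reg4+ DCS values for 65 of the 77 (56.2% of all genes tested), and the reverse held for 0 (16.1% of all). The median log2 difference was -0.69 over the 77 genes and -0.47 over all genes tested. The called genes stood 1.69-fold (Rpl36a) to 3.12-fold (Rpsa) higher in Lgr5+ cells by mean RPM. Without either Reg4+ DCS library the count was 0, and without Lgr5+ replicate 2 it was 8.

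After median-of-ratios scaling, 0 of the 77 genes were called in either direction by limma, although 12.7% of all genes tested were called higher in Lgr5+ cells and 15.6% higher in Reg4+ DCS cells. At an unadjusted p under 0.05, 2 of the 77 were higher in Lgr5+ cells, Rpsa and Rps19 (18.7% of all genes tested), and 0 were higher in Reg4+ DCS cells (2221 of all 10183 genes tested). EdgeR with TMM factors called 1 gene, Rpsa. Lgr5+ values lay above for 28 of the 77 (32.0% of all genes tested) and Reg4+ DCS values for 3, namely Rpl38, Rpl39 and Rps27l (34.6% of all genes tested). The median log2 difference was -0.18 over the 77 genes and 0.02 over all genes tested. It rested on the Lgr5+ libraries, since the median of the ribosomal protein genes was -0.0013 without Lgr5+ replicate 2, with 37 of 76 genes above 0, and -0.36 without Lgr5+ replicate 1, with 12 of 76 above 0. Among the 250 genes tested with a mean of at least 500 RPM, most ribosomal protein genes included, the median was -0.23 on the RPM scale and 0.28 after scaling. Without Lgr5+ replicate 1, 4 genes were called higher in Lgr5+ cells (Rpl10a, Rps18, Rps19 and Rpsa), and without Lgr5+ replicate 2, 2 were called higher in Reg4+ DCS cells (Rpl38 and Rps29).

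**Figure D2:**
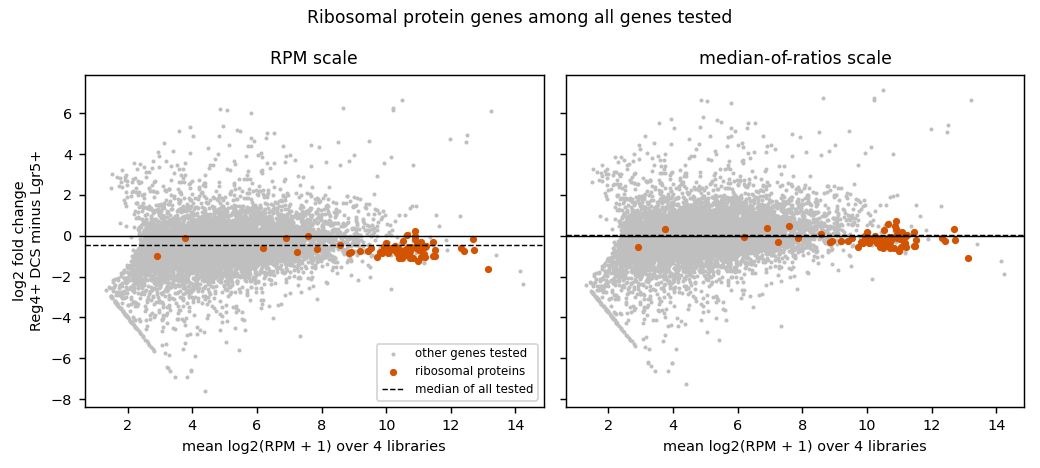
Log2 difference between Reg4+ DCS and Lgr5+ cells (vertical axis) against the mean log2(RPM + 1) over 4 libraries (horizontal axis) for 10183 genes tested (grey) and the 77 ribosomal protein genes among them (orange), on both scales; the dashed line is the median of all genes tested. Most of the ribosomal protein genes lie at high levels. Their log2 differences run from -1.62 to 0.21 on the RPM scale (median -0.69) and from -1.11 to 0.72 after median-of-ratios scaling (median -0.18).

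The most abundant of these mRNAs by the mean over the 4 libraries was Rpsa, although Rpl41 stood above it in both Reg4+ DCS libraries. Rpsa codes for a small subunit protein also known as the laminin receptor (chr9:120127689-120132369, plus strand, GRCm38, GENCODE M21). It stood at 4865 and 5450 RPM in Reg4+ DCS cells and at 13046 and 19093 RPM in Lgr5+ cells. Both Lgr5+ values lay far above both Reg4+ DCS values, with a log2 difference of -1.62 ± 0.34 (SE, adjusted p = 0.00953), the largest among the 77 on either scale. The mRNA took 4.78% and 4.91% of all ribosomal protein RPM in Reg4+ DCS cells and 8.37% and 9.67% in Lgr5+ cells, so that it also stood apart from the rest of the family. After median-of-ratios scaling the levels were 6342 and 5919 against 10574 and 16440, still without overlap, and the log2 difference of -1.11 ± 0.43 had an adjusted p of 0.0941. Leaving Rpsa out of the family changed the ratio of the sums on the RPM scale from 1.66 to 1.58.

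The other abundant members differed less. Rpl27a, a large subunit protein, stood at 5312 and 5275 RPM in Reg4+ DCS cells and at 7397 and 10066 RPM in Lgr5+ cells (adjusted p = 0.114). Rpl4, a large subunit protein with a long loop that lines the exit tunnel, stood at 4144 and 4246 against 6511 and 7770 RPM (adjusted p = 0.075). Neither was called, though their groups did not overlap. Rps12 stood at 3986 and 4304 against 6432 and 6208 RPM (adjusted p = 0.127). Rpl41, the smallest protein of the ribosome, stood at 6932 and 5485 against 6582 and 7413 RPM, and its groups overlapped. Rps9, a small subunit protein, was called (1667 and 2402 against 3377 and 4664 RPM, adjusted p = 0.0412), with both Lgr5+ values above both Reg4+ DCS values on the RPM scale. A mean above 1000 RPM was reached by 59 of the 80 genes, and 74 were above 100 RPM in every library.

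**Figure D3:**
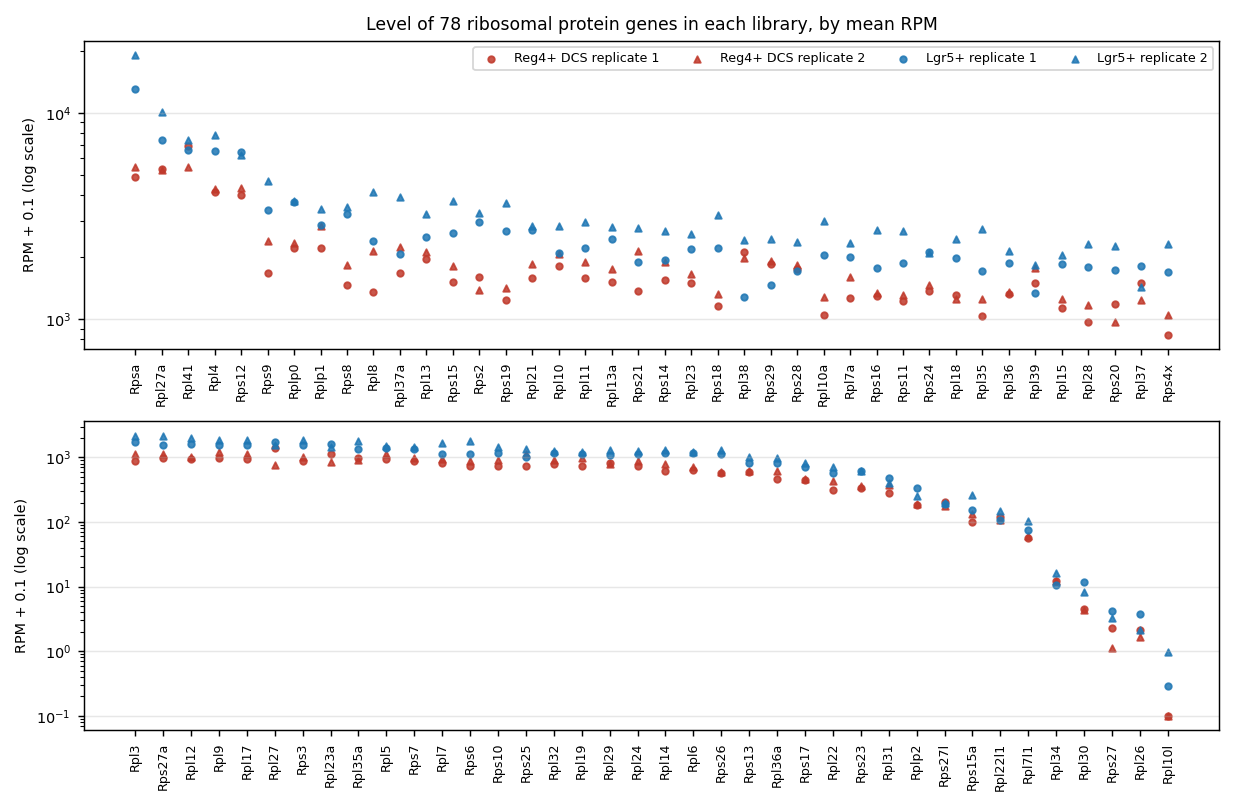
Level of 78 ribosomal protein genes (vertical axis, RPM + 0.1 on a log scale, with different ranges in the panels) in the 4 libraries (red, Reg4+ DCS; blue, Lgr5+; circles, replicate 1; triangles, replicate 2), ordered by mean RPM from the upper to the lower panel. Rpsa has the widest gap between the groups among the abundant genes, and 5 genes at the right of the lower panel (Rpl34, Rpl30, Rps27, Rpl26 and Rpl10l) stay under 20 RPM in every library.

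Small subunit genes made up most of the strongest differences on the RPM scale. Of 30 tested small subunit genes 16 were called higher in Lgr5+ cells, with a median log2 difference of -0.82, and of 47 tested large subunit genes 11 were called, with a median of -0.64, beside 26.9% of all genes tested. The count of the large subunit genes is thus no higher than that share. After median-of-ratios scaling the medians were -0.31 and -0.13, and 0 genes of either subunit were called. The difference between the subunits was not tested, since the members are no independent samples.

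Most of the called genes with the largest difference code for small subunit proteins. Rps19, a head protein whose human gene is mutated in Diamond-Blackfan anaemia, stood at 1231 and 1410 RPM in Reg4+ DCS cells and at 2684 and 3650 RPM in Lgr5+ cells (log2 difference -1.25 ± 0.27, SE, adjusted p = 0.0112). Rps26, which lies where the mRNA leaves the small subunit, stood at 581 and 586 against 1131 and 1319 RPM (-1.06 ± 0.23, adjusted p = 0.0106). In both genes, both Lgr5+ values lay well above both Reg4+ DCS values. Rps18 followed with 1155 and 1316 against 2214 and 3187 RPM. Rps4x, whose gene lies on the X chromosome, stood at 837 and 1042 against 1698 and 2306 RPM. Rps2, a protein at the entry of the mRNA channel, stood at 1596 and 1381 against 2961 and 3256 RPM. Rpl10a, the large subunit protein of the L1 stalk, stood at 1044 and 1272 against 2039 and 2994 RPM. The log2 differences of these 4 genes lay between -1.11 and -1.06, and their adjusted p between 0.0159 and 0.0214. After median-of-ratios scaling these 6 genes still had both Lgr5+ values above both Reg4+ DCS values, with means 1.45-fold (Rps2) to 1.70-fold (Rps19) higher, and 0 of the 6 were called (adjusted p from 0.114 to 0.225).

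At the other end stood genes for some of the shortest ribosomal proteins. Rpl38, a large subunit protein linked to the translation of Hox mRNAs, stood at 2104 and 1971 RPM in Reg4+ DCS cells and at 1279 and 2414 RPM in Lgr5+ cells. The Lgr5+ replicates lay on both sides of the Reg4+ DCS libraries, and the log2 difference was 0.21 ± 0.33 (SE). After median-of-ratios scaling Rpl38 stood at 2743 and 2141 against 1037 and 2079, without overlap but with the nearest values of the groups close together (log2 difference 0.72 ± 0.38, adjusted p = 0.197). Rpl39, a small protein that lines the exit tunnel, stood at 1495 and 1776 against 1340 and 1827 RPM on the RPM scale. Scaled, it stood at 1948 and 1929 against 1086 and 1573, with a log2 difference of 0.57 ± 0.30 (adjusted p = 0.194). Rps29, a zinc-binding protein of the small subunit head, stood at 1842 and 1917 against 1460 and 2450 RPM. Rps28 stood at 1741 and 1820 against 1710 and 2353 RPM. None of these genes was called on either scale, and all of them overlapped between groups on the RPM scale.

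**Figure D4:**
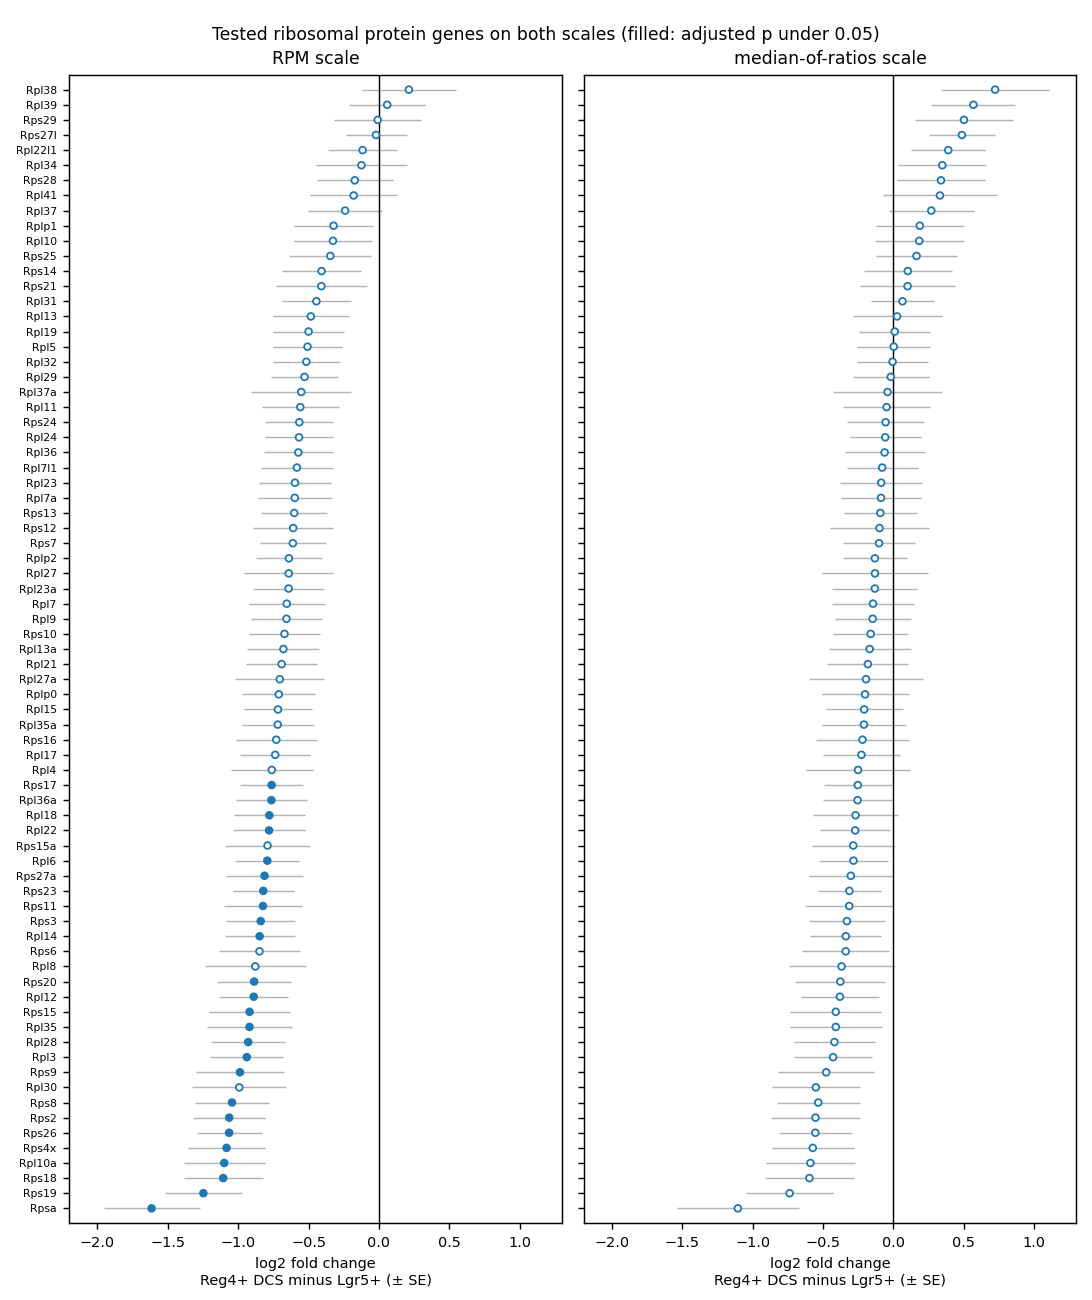
Log2 difference between Reg4+ DCS and Lgr5+ cells (horizontal axis, points, with the standard error as bars) for 75 tested ribosomal protein genes, in the order of the RPM scale, on the RPM scale (left) and after median-of-ratios scaling (right); filled points have an adjusted p under 0.05. On the left 25 points are filled, all to the left of 0, and on the right 0 are filled, with 18 genes to the right of 0.

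Set against the family's own sum, each gene's level needs no scaling between libraries. The share of the sum was larger in both Lgr5+ libraries than in both Reg4+ DCS libraries for 17 of the 80 genes, smaller in both for 21, and overlapping for 42. These counts have no share of all genes tested to stand beside and were not tested. They include genes under the filter, such as Rpl10l among those with a larger share. Rps19 took 1.21% and 1.27% of the sum in Reg4+ DCS cells and 1.72% and 1.85% in Lgr5+ cells. In the other direction Rpl41 took 6.81% and 4.94% against 4.22% and 3.76%, Rpl38 2.07% and 1.77% against 0.821% and 1.22%, and Rpl39 1.47% and 1.60% against 0.86% and 0.926%. These shares are a description, since a gene whose share is larger makes the shares of the others smaller.

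By position in the ribosome, the P stalk recruits the elongation factors. Of its 4 genes, Rpl12, which anchors the stalk, was called (940 and 1007 against 1625 and 2003 RPM, adjusted p = 0.027). Rplp0, the stalk's core, stood at 2200 and 2343 RPM in Reg4+ DCS cells and at 3698 and 3741 RPM in Lgr5+ cells (adjusted p = 0.065). Rplp2 stood at 185 and 187 against 334 and 252 RPM, and its partner Rplp1 at 2209 and 2829 against 2869 and 3408 RPM. All 4 had separate groups on the RPM scale, by a narrow margin in Rplp1. On that scale 26.9% of all genes tested were called higher in Lgr5+ cells. Lgr5+ values lay above for 56.2% of all genes tested and for 84.4% of the 77 ribosomal protein genes. Rplp1 and Rplp2 proteins form dimers on the stalk, yet the 3′ tag level of Rplp2 lay far under that of Rplp1 in every library.

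Rpl5 and Rpl11, which bind the 5S ribosomal RNA and, when free, the p53 regulator Mdm2, were not called. Rpl5 stood at 933 and 1133 against 1413 and 1513 RPM (adjusted p = 0.137) and Rpl11 at 1588 and 1896 against 2219 and 2943 RPM (adjusted p = 0.145). After median-of-ratios scaling their log2 differences were 0.00 and -0.05.

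Proteins at the rim of the exit tunnel meet the growing chain and the signal recognition particle, which brings secreted proteins to the endoplasmic reticulum. Of 7 tested rim genes 2 were called, both higher in Lgr5+ cells on the RPM scale, a share near the 26.9% of all genes tested. These were Rpl22 (314 and 434 against 565 and 713 RPM, adjusted p = 0.0477) and Rpl35, at the docking site of the particle (1034 and 1257 against 1703 and 2734 RPM, adjusted p = 0.0468). Rpl23a, at the same site, stood at 1120 and 853 against 1594 and 1461 RPM, Rpl17 at 946 and 1113 against 1560 and 1878, Rpl19 at 722 and 962 against 1131 and 1230, and Rpl31 at 280 and 378 against 486 and 403. All of these had separate groups on the RPM scale, unlike Rpl39 above, as had most of the 77 genes (84.4%, beside 56.2% of all genes tested). The remaining rim gene, Rpl26, was under the filter.

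Ribosomal proteins are also made as fusions with ubiquitin or a ubiquitin-like protein. Rps27a stood at 967 and 1125 RPM in Reg4+ DCS cells and at 1544 and 2176 RPM in Lgr5+ cells and was called by a small margin (adjusted p = 0.0494). Fau, outside the symbol pattern, stood at 1155 and 1237 against 1761 and 2054 RPM and was not called. Of the other ribosomal proteins outside the pattern, Rps3a1 stood at 7347 and 8239 against 12727 and 17329 RPM (adjusted p = 0.0649), a higher mean over the 4 libraries than that of Rpsa. Gnb2l1, an older symbol of Rack1, stood at 1274 and 1636 against 2257 and 2906 RPM and was called by a small margin (adjusted p = 0.0497).

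Several ribosomal proteins are encoded by a pair of related genes. Rpl22l1 stood at 121 and 108 RPM in Reg4+ DCS cells and at 106 and 145 RPM in Lgr5+ cells, with overlapping groups (log2 difference -0.12 ± 0.24), while Rpl22 was called. Rpl36al stood at 546 and 602 against 431 and 584 RPM (0.19 ± 0.24), while Rpl36a stood at 455 and 611 against 830 and 967 RPM and was called (adjusted p = 0.0466). The difference within each pair was not tested. Rps27l, known as a target of p53, stood at 205 and 177 against 193 and 194 RPM. Rpl7l1 stood at 56.3 and 60.5 against 73.8 and 105 RPM, far under Rpl7 with 818 and 936 against 1145 and 1659 RPM. Rpl3 stood at 889 and 1123 against 1743 and 2106 RPM (adjusted p = 0.0263). Rpl10, on the X chromosome, stood at 1816 and 2074 against 2088 and 2840 RPM (adjusted p = 0.376). Its testis-enriched copy Rpl10l was listed at 0 in both libraries of Reg4+ DCS cells and reached 0.192 and 0.88 RPM in Lgr5+ cells.

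A few of the genes stood at very low levels. Below the filter, beside Rpl10l, were Rpl26 (2.05 and 1.56 against 3.65 and 2.01 RPM) and Rps27 (2.22 and 1.04 against 4.03 and 3.14 RPM). Just above it were Rpl30 (4.40 and 4.30 against 11.5 and 8.04 RPM, adjusted p = 0.0506) and Rpl34 (12.0 and 12.0 against 10.6 and 16.3 RPM). In GENCODE M21, of the stretches of 50 bases within the last 300 bases of the transcript, other annotated genes held 64.5% for Rpl26, all for Rps27, 80.9% for Rpl30 and 54.2% for Rpl34. Rps12, Rpl10, Rpl21, Rpl36a and Rpl9 also shared all of them, and the lowest value among these 5 genes in any library was 455 RPM (Rpl36a). The part of shared sequence in the low values was not tested. Among the 80 genes 62 shared at least 1 such stretch, and their values are uncertain to the extent that reads from copies and pseudogenes could be split or dropped. These 62 include the called genes Rpsa (74.1% of its stretches), Rps19 (57.4%), Rps26 (62.5%), Rps18 (78.9%), Rps4x (62.2%), Rps2 (79.3%) and Rpl10a (87.6%). The 17 tested genes with no shared stretch had a median log2 difference of -0.79 on the RPM scale and -0.28 after scaling, with 8 called on the RPM scale (47.1%). The other 60 had medians of -0.65 and -0.14, with 19 called (31.7%), beside 26.9% of all genes tested called higher in Lgr5+ cells. Rpl4 is among those with no shared stretch.

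The size of the difference between the populations went with the length of the protein. Over the 77 genes, the log2 difference and the log2 coding length had a Pearson r of -0.57 and a Spearman rho of -0.44, so that genes for longer proteins stood lower in Reg4+ DCS cells relative to genes for shorter ones. The correlation is across genes measured in the same 4 libraries and is a description. It was -0.58 within the libraries numbered 1 and -0.43 within those numbered 2, and over 9364 other genes tested it was -0.14. The 26 genes of 75 to 399 coding bases had a median log2 difference of -0.50 on the RPM scale and 0.01 after scaling, with 13 above 0 after scaling. The 26 genes of 405 to 576 bases had medians of -0.72 and -0.21, and the 25 genes of 582 to 1257 bases of -0.79 and -0.28. Called on the RPM scale were 5, 11 and 11 genes of these sets, all higher in Lgr5+ cells, where 26.9% of all genes tested were called in that direction. Between replicates, Lgr5+ replicate 2 minus replicate 1 had a Pearson r of -0.06 with coding length and Reg4+ DCS replicate 2 minus replicate 1 one of 0.23. The part of RNA integrity or amplification in this relation was not tested, and the relation was looked for after the values of the short genes had been seen.

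**Figure D5:**
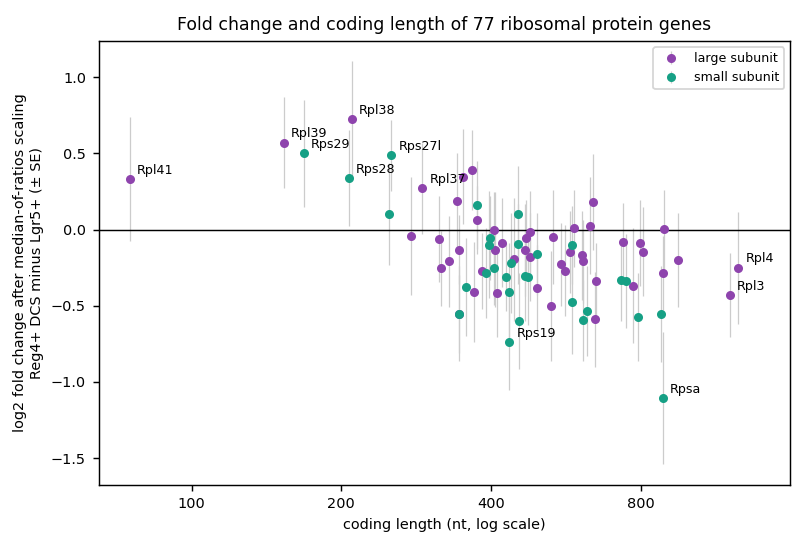
Log2 difference after median-of-ratios scaling (vertical axis, with the standard error as bars) against coding length in nucleotides (horizontal axis, log scale) for 77 ribosomal protein genes of the large (purple) and small (green) subunit. The 26 shortest genes (75 to 399 bases) are centred near 0 (median 0.01) and include Rpl38, Rpl39, Rps29 and Rpl41, and the 25 longest have a median of -0.28, with Rpsa lowest at -1.11.

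The level of the family as a whole also moved between replicates. Lgr5+ replicate 2 stood above Lgr5+ replicate 1 for 69 of the 77 genes, by a median of 1.23-fold, while the median log2 difference of all genes tested between these libraries was -0.03. Reg4+ DCS replicate 2 stood above replicate 1 for 62 of the 77 on the RPM scale, by a median of 0.16 on the log2 scale against 0.23 for all genes tested. The Lgr5+ libraries also differed from each other in the sums of tuft, enteroendocrine and absorptive markers, and little in those of leukocyte and proliferation markers. Single leukocyte markers did differ between Lgr5+ replicates 1 and 2, in opposite directions for Ptprc (40.1 and 9.55 RPM) and Cd74 (13.4 and 40.5 RPM). Of 7 tuft cell markers in the table, 5 were at 0 in both Reg4+ DCS libraries, and the 7 summed to 1.15 and 1.28 RPM in Reg4+ DCS cells and to 799 and 217 RPM in Lgr5+ cells. The 11 leukocyte markers summed to 2.23 and 2.23 against 62.2 and 54.7 RPM, with 7 of them, Ptprc included, at 0 in both Reg4+ DCS libraries. The 10 proliferation markers summed to 451 and 517 against 1849 and 1939 RPM. The 9 enteroendocrine markers summed to 26.3 and 35.7 against 107 and 44.9 RPM, and 9 absorptive markers to 437 and 429 against 1210 and 391 RPM. Car2 alone made up 329 and 380 against 369 and 227 RPM of the absorptive sums. It was the only absorptive marker with a higher mean in Reg4+ DCS cells. The part of these cells in the ribosomal protein levels was not tested.

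The start sites of the genes were read to see how many carry the pyrimidine tract of TOP mRNAs at the annotated start, since the tract is the feature by which these mRNAs are controlled together. RefSeq promoter windows (GRCm38.p6) were matched by symbol for 60 of the 80 genes. A run of at least 5 pyrimidines (C or T, read on the strand of the gene only) that covers the annotated start or begins within 5 bases of it was found in 29 of the 60, or 48.3%, against 27.9% of the other genes of the table with a window and 27.0% of all genes with one. A C at the annotated start followed by 4 pyrimidines was found in 13 of the 60, or 21.7%, against 2.97% and 3.01%. The 30 bases around the annotated start, of which 15 lie before it, are shown for called genes (Rps18, Rpl35, Rpl28 and Rpsa) and for genes at the other end of the family (Rpl38, Rpl22l1 and Rps27l), with the pyrimidine run in capitals.
Rps18, chr17:33955651-33955680, minus strand: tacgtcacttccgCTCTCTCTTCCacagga
Rpl35, chr2:39005117-39005146, minus strand: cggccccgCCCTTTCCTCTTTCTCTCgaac
Rpl28, chr7:4792950-4792979, plus strand: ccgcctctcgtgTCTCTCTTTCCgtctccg
Rpl38, chr11:114668565-114668594, plus strand: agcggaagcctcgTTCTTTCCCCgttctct
Rpl22l1, chr3:28805493-28805522, plus strand: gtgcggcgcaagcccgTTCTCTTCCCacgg
Rps27l, chr9:66946071-66946100, plus strand: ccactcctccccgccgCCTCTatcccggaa
Rpsa, chr9:120127751-120127780, plus strand: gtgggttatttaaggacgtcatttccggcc

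Among the windows shown a run at or near the start is found in called genes and in genes at the other end. The C followed by 4 pyrimidines is found in Rps18, Rpl35, Rpl28 and Rpl38, but not in Rpl22l1 or Rps27l. The window of Rpsa holds no run at its annotated start. Windows without a run were likewise found at both ends, such as Rps19 and Rps4x among called genes and Rpl41 and Rps28 at the other end. No match says only that the letters are not at this annotated position. The 28 tested genes with a run had a median log2 difference of -0.71 on the RPM scale and -0.20 after scaling, the 29 without one of -0.61 and -0.10, and the 20 without a listed window of -0.75 and -0.24. Called on the RPM scale were 10, 9 and 8 of them.

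Other transcripts known to carry a TOP tract, most of which code for translation factors and a few other proteins, stood close to the ribosomal protein genes. Of 22 tested, 12 were called higher in Lgr5+ cells and 0 higher in Reg4+ DCS cells on the RPM scale (26.9% and 7.18% of all genes tested), with a median log2 difference of -0.72. After median-of-ratios scaling 2 and 0 were called (12.7% and 15.6% of all genes tested), with a median of -0.22, so that the first count lies under the share of all genes. Those 2 were Nap1l1, a histone chaperone, at 32.4 and 42.7 RPM in Reg4+ DCS cells and 181 and 206 RPM in Lgr5+ cells (adjusted p = 0.000732 after scaling), and Npm1, a nucleolar protein of ribosome assembly, at 164 and 253 against 527 and 667 RPM (adjusted p = 0.018 after scaling). The elongation factor genes Eef1a1 (2224 and 2556 against 2912 and 3544 RPM) and Eef2 (2475 and 3552 against 3974 and 5704 RPM) were not called, and Eef1g was called on the RPM scale only (367 and 420 against 658 and 850 RPM, adjusted p = 0.0209). Tpt1, an abundant TOP mRNA, stood at 1659 and 1672 against 1997 and 2016 RPM and was not called.

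Proteins that escort newly made ribosomal proteins to the nucleus were in part called higher in Lgr5+ cells on both scales. Of 9 tested genes listed as chaperones and importers, 5 were called higher in Lgr5+ cells on the RPM scale (26.9% of all genes tested). After scaling 3 were called (12.7% of all), with medians of -0.92 and -0.45, and 0 were called higher in Reg4+ DCS cells on either scale. Grwd1, a chaperone of Rpl3, stood at 12.7 and 14.2 RPM in Reg4+ DCS cells and at 46.9 and 64.1 RPM in Lgr5+ cells (adjusted p = 0.00465 after scaling). The importin Ipo5 stood at 29.0 and 44.9 against 83.0 and 127 RPM (0.0338). Aarsd1 stood at 16.5 and 23.4 against 52.1 and 69.0 RPM (0.0162). It is counted on both scales, though it is not established as a chaperone or importer of ribosomal proteins. Tsr2, a chaperone of Rps26, stood at 3.61 and 7.55 against 15.8 and 14.3 RPM and was called on the RPM scale only (adjusted p = 0.0267, and 0.0719 after scaling). Rpl3 and Rps26 themselves were called on the RPM scale only.

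Genes of the control of ribosomal protein synthesis were called at shares near or under those of all genes tested. Of 19 tested, 2 were called higher in Lgr5+ cells on the RPM scale and 0 after scaling (26.9% and 12.7% of all genes tested). Higher in Reg4+ DCS cells were 0 on the RPM scale and 3 after scaling (7.18% and 15.6% of all), the last a share near that of all genes, with medians of -0.42 and 0.04. Larp1, which binds the TOP tract, stood at 72.2 and 104 RPM in Reg4+ DCS cells and at 163 and 166 RPM in Lgr5+ cells (adjusted p = 0.0248), and Rps6kb1, the kinase of Rps6, at 40.7 and 47.0 against 96.2 and 66.5 RPM (adjusted p = 0.0393). After scaling the adjusted p values were 0.183 and 0.293. The genes called higher in Reg4+ DCS cells after scaling were Tsc1, part of the complex that restrains mTOR (34.1 and 62.6 against 31.7 and 31.9 RPM, adjusted p = 0.0221 after scaling), Larp4b (43.1 and 64.0 against 50.7 and 33.8 RPM, adjusted p = 0.0411) and Rheb, the activator of mTOR (53.0 and 76.7 against 62.0 and 49.4 RPM, adjusted p = 0.049). In all 3 the difference is largest in the libraries numbered 2. Mtor stood at 22.6 and 27.7 against 39.8 and 31.8 RPM and Myc at 34.3 and 56.2 against 42.1 and 65.1 RPM, and neither was called on either scale.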

How the data were processed

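RNA from sorted cells was made into CEL-seq libraries and sequenced as 50 bp paired-end reads, per the labels' protocols. BWA 0.6.2-r126 and the build mm10 are named in the submitters' processing notes. How alignments became gene values, with or without strand and molecular identifiers, is not given in the sources. The authors deposited 1 table of RPM for 14519 genes in 4 columns. Dividing the Lgr5+ values by the smallest step returned whole reads for 100% of genes (tolerance 0.01 reads). Reg4+ DCS values followed 2 steps, as in an average of 2 parts whose nature the sources do not state, and a unique pair of read numbers was found for 99.95% of the genes of replicate 1 and for 99.1% of those of replicate 2. There 129 genes, 49 of them ribosomal protein genes, were ambiguous and took the solution nearest to equal RPM in both parts. Each such column is 1 replicate. One read was worth 0.126 to 0.529 RPM within a Lgr5+ library or within a part of a Reg4+ DCS column. In the average of 2 parts it was worth less, with nonzero values as low as 0.0905 RPM in Reg4+ DCS replicate 1.

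Genes with at least 5 RPM in at least 2 libraries (10183) entered a two-sided test on log2(RPM + 1) by limma 3.58.1 (lmFit, eBayes with trend, R 4.3.3), with group as the only term, and again after dividing by median-of-ratios factors. A log2 difference on this scale understates the change of low genes. Folds are ratios of group means. EdgeR 4.0.16 (quasi-likelihood) was run on the recovered reads, which gave 24 called ribosomal protein genes on the RPM scale. The fits were tested on simulated data. P-values rest on 2 libraries per group. Coordinates, coding lengths and transcript ends come from GENCODE M21, which matched all 80 genes, and promoters from RefSeq. The genes named with values were the 8 most abundant, the 8 called genes with the largest difference and separate groups, the structural and paralog sets, and the genes below the filter. Rps28, Rps29, Rpl38 and genes of the other lists were chosen after their values were seen. The ribosomal protein genes, the lists and the tests were chosen with earlier results of these data known. A few genes that these rules pick are not reported here and not drawn. Summed levels, medians and list counts have no test.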

Additional observations from a re-analysis of the deposited data

How the results depend on the processing

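On the RPM scale, where 27 ribosomal protein genes were called, the count was 7 with no filter on low values, 8 with genes above 1% of a library left out and 0 with TMM scaling. It was 0 (without either Reg4+ DCS library) to 37 (without Lgr5+ replicate 1) without 1 library. Pseudocounts, a filter of 20 RPM, limma without a trend and edgeR kept it within 1.5 times. The median log2 difference of -0.69 became -0.47 without the genes above 1% and -0.20 with TMM scaling. After median-of-ratios scaling, where 0 were called, limma without a trend, a filter of 20 RPM and edgeR with TMM factors each called 1, Rpsa, and the count was 0 to 4 without 1 library. The mean share of the column in Reg4+ DCS cells was 12.6% in place of 10.6% without the genes above 1%. After median-of-ratios scaling the median log2 difference ran from -0.36 to -0.0013 without 1 library. The replicate numbers were not shown to pair the libraries. The replicate differences of the populations had a correlation of 0.21 over all genes tested and 0.32 over the ribosomal protein genes, and with a replicate block 57 genes were called on the RPM scale, all 27 included, and 0 after scaling. Sums without mitochondrially encoded genes were not run, since the table lists 0 of them under symbols that begin with mt-. With 2 libraries per group, leaving 1 out leaves a lone library that is assumed to vary like the other group.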

Other observations

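The table also holds 6 entries named as pseudogenes of ribosomal proteins, which together took 0.131% and 0.164% of the Reg4+ DCS columns and 0.184% and 0.257% of the Lgr5+ columns. Rps19-ps3 stood at 284 and 357 RPM in Reg4+ DCS cells and at 596 and 864 RPM in Lgr5+ cells (log2 difference -1.17 ± 0.27, SE, limma adjusted p = 0.0126), beside -1.25 for Rps19. Rpl34-ps1 stood at 19.4 and 17.3 RPM in the libraries numbered 1 of Reg4+ DCS and Lgr5+ cells and at 110 RPM in both libraries numbered 2. Rpl34 itself stood at 12.0 and 10.6 RPM in the libraries numbered 1 and at 12.0 and 16.3 RPM in those numbered 2. Rn45s, the precursor of the large ribosomal RNAs, stood at 9184 and 7684 RPM in Reg4+ DCS cells and at 46715 and 41028 RPM in Lgr5+ cells. CEL-seq primes on poly(A), which mature ribosomal RNAs lack.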
